A study of Homo sapiens with 2 samples.

Results

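RHEB, RHEBL1 and 6 genes of the mTORC1 core (MTOR, RPTOR, MLST8, TSC1, TSC2 and RPS6KB1) were described here, 8 of the 58051 genes counted. They were chosen by name, and RHEBL1 because of its ratio in these same libraries, so their ratios are a description and carry no test. All 8 had at least 100 counts summed over both libraries, the minimum for a gene called measured here, which 11466 genes reached. RNA was sequenced from parental BEAS-2B cells, an immortalised human bronchial epithelial line of wild-type genotype, at a passage between 20 and 30. The second library came from BEAS-2B cells overexpressing the cation channel gene TRPV3 (TRPV3-OE), at a passage between 4 and 8, so passage and genotype cannot be told apart. Both lines were untreated, grown in LHC-9 medium on collagen and fibronectin, and collected when confluent. How TRPV3 was introduced, and whether the line is 1 clone, is not given in the sources used here. Each group had 1 library, which leaves differences without a check by replicates and without p-values. All intervals are at 95%, exact unless called approximate, and cover counting error only. Reads that are PCR copies of the same molecule would not be independent.

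The libraries held 17450658 (parental) and 17477953 (TRPV3-OE) gene counts. TRPV3 had 26 counts in the parental and 54077 in the TRPV3-OE library. All 7 epithelial markers checked (EPCAM, CDH1, KRT5, KRT8, KRT18, KRT19 and TP63) were measured, with a summed level of 3898 and 4184 counts per 1000000 counts (CPM). Their members went both ways. The basal cell markers KRT5 and TP63 had log2 ratios of −0.40 and −0.41 (TRPV3-OE over parental), and CDH1 −0.09. KRT8 (0.38), KRT18 (0.35), KRT19 (0.45) and EPCAM (0.55) were on the other side. Of 3 immune markers PTPRC and CD3E were at 0 in both libraries and CD68 had 1 count in each. The 3 endothelial markers summed to 16.7 and 3.26 CPM, of which CDH5 had 268 and 35 counts (7.96-fold lower), PECAM1 14 and 23, and VWF 4 and 0. Of 4 fibroblast markers COL1A1 had 410 and 285 counts and the other three at most 5 in either library, and of 2 smooth muscle markers ACTA2 had 138 and 100 and MYH11 2 and 0. Their part in the ratios below was not tested. In such bulk RNA, fewer cells expressing a gene and less RNA per cell cannot be told apart.

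RHEB is a small GTPase on the lysosomal membrane which, when loaded with GTP, switches on mTORC1, the kinase complex that couples growth factors, nutrients and energy to protein synthesis and growth. MTOR is its kinase, RPTOR recruits substrates and MLST8 stabilises the kinase domain. The TSC1 and TSC2 proteins form the complex that turns RHEB off by stimulating its GTPase activity. RPS6KB1 encodes S6 kinase 1, a main substrate. RHEBL1 encodes a RHEB-like GTPase that can also act on mTOR when overproduced.

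RHEBL1 was the gene of the group that differed most. RHEBL1 (ENSG00000167550, GRCh38 chromosome 12, 49064685 to 49070025, minus strand, 8 exon blocks) had 112 counts in the parental and 1258 counts in the TRPV3-OE library. Its level was 6.54 CPM (5.38 to 7.87) against 70.6 CPM (66.8 to 74.7), and these intervals do not overlap. The level was 10.8-fold higher in TRPV3-OE (8.90 to 13.2), a log2 ratio of 3.43 (3.15 to 3.73). A higher ratio was found in 31 of 10925 measured protein-coding genes. Per kilobase of exon, RHEBL1 lay above 35.7% of measured protein-coding genes in the parental library and above 93.1% in TRPV3-OE.

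RHEB itself (ENSG00000106615, chromosome 7, 151466012 to 151520120, minus strand) had 819 parental and 989 TRPV3-OE counts. That is 47.8 CPM (44.6 to 51.2) and 55.5 CPM (52.1 to 59.1), a log2 ratio of 0.22 (0.08 to 0.35). The interval lies above 0, but the difference is 1.16-fold. The 50 measured genes nearest to RHEB had a median log2 ratio of 0.25, so RHEB did not stand above its neighbourhood.

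Reads of the GTPase pair can be told apart, because the messages differ throughout. The principal transcripts of GENCODE 29 (GRCh38) have coding sequences of 552 bases in RHEB and 549 in RHEBL1, with a GC content of 40.6% and 50.3%. Over the 549 aligned coding positions identity was 57.0%, and the longest stretch shared by the whole transcripts was 14 bases. None of the 1384 different 50-base stretches in RHEBL1 transcripts occurred in a transcript of another gene. For RHEB 341 of 3605 (9.46%) did, 327 of them in the pseudogene RHEBP1. Reads with several alignments were not counted, so of the pair RHEB is the gene whose count such copies can lower.

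The balance within the pair turned over between the libraries. RHEBL1 made up 27.3% (23.4 to 31.4) of the summed RHEB and RHEBL1 level per kilobase in the parental library and 77.7% (76.2 to 79.1) in TRPV3-OE. The summed level of the pair was 18.6 and 70.5 CPM per kilobase. RHEBL1 was thus the minor gene in parental cells and the major one in TRPV3-OE cells, also by raw counts, of which it took 12.03% (10.01 to 14.3) and 56.0% (53.9 to 58.1).

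**Figure D1:**
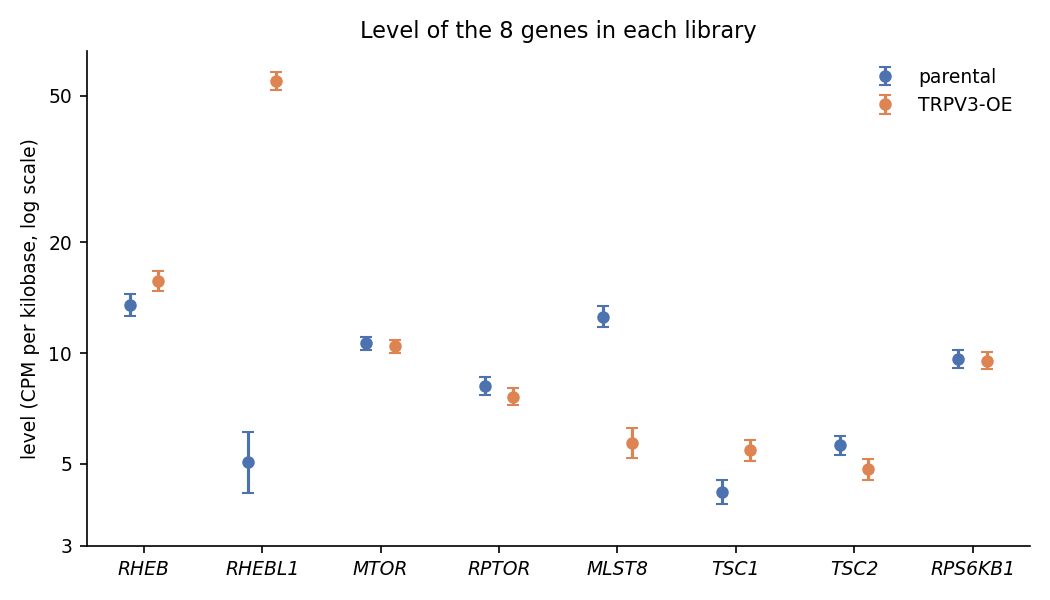
Level of each gene in CPM per kilobase of exon (log scale) in the parental (blue) and TRPV3-OE (orange) libraries, with exact 95% Poisson intervals for counting error. RHEBL1 went from 5.07 to 54.8 and MLST8 from 12.6 to 5.70, while the other 6 genes differed by at most 1.29-fold.

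Among the subunits of mTORC1 the kinase and its substrate adaptor were at nearly equal levels in the libraries. MTOR (ENSG00000198793, chromosome 1, 11106535 to 11262507, minus strand) had 2205 and 2254 counts, or 129 CPM (123 to 134) and 127 CPM (121 to 132). Its log2 ratio was −0.02 (−0.11 to 0.06), an interval that holds 0. RPTOR (ENSG00000141564, chromosome 17, 80544819 to 80966371, plus strand) had 1309 and 1274 counts and a log2 ratio of −0.10 (−0.21 to 0.02). For both genes a 2-fold difference lies far outside the counting interval.

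MLST8 was the exception among the subunits. MLST8 (ENSG00000167965, chromosome 16, 2204248 to 2209416, plus strand) had 930 counts in the parental and 439 in the TRPV3-OE library. The level was 54.3 CPM (50.9 to 57.9) against 24.7 CPM (22.4 to 27.1), with no overlap, and 2.20-fold lower in TRPV3-OE (log2 ratio −1.14, −1.31 to −0.97). MLST8 lies in a part of chromosome 16 where ratios were low, with a median of −0.57 over its 50 nearest measured genes. With that median subtracted its log2 ratio was −0.57, short of 2-fold. BRICD5, on the opposite strand, shares 164 exon bases with MLST8 and had 85 and 119 counts. The counts were made by strand.

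The genes of the TSC complex differed by less. TSC1 (ENSG00000165699, chromosome 9, 132891348 to 132944633, minus strand), which stabilises the complex, had 714 and 961 counts, 41.7 CPM (38.7 to 44.9) and 54.0 CPM (50.6 to 57.5). Its log2 ratio of 0.37 (0.23 to 0.51) was near the median of 0.45 for its neighbours. TSC2 (ENSG00000103197, chromosome 16, 2047465 to 2088720, plus strand), the GTPase-activating subunit, had 1070 and 958 counts, 62.5 CPM (58.8 to 66.3) and 53.8 CPM (50.4 to 57.3). Its log2 ratio was −0.22 (−0.34 to −0.09).

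TSC1 and TSC2 thus lay on opposite sides of 0, each with an interval that excludes it. TSC2 shares its neighbourhood with MLST8 (median −0.59 around TSC2) but was above that median, whereas MLST8 was below it. NTHL1, on the opposite strand, shares 402 exon bases with TSC2 and had 236 and 184 counts.

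RPS6KB1 (ENSG00000108443, chromosome 17, 59893046 to 59950564, plus strand) had 1268 and 1307 counts, 74.0 CPM (70.0 to 78.2) and 73.4 CPM (69.5 to 77.5). Its log2 ratio of −0.01 (−0.13 to 0.10) was close to 0, as was that of MTOR. Both turn from slightly below to slightly above 0 under 3 other scalings of the libraries, where MTOR is the closer to 0. A second gene model on the same strand, with 0 counts in both libraries, shares 149 exon bases (1.94%) with RPS6KB1, and reads in both models are not counted. Of the 8002 different 50-base stretches in RPS6KB1 transcripts, 622 (7.77%) occurred in a transcript of another gene.

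Counting 2-fold differences whose interval also lies on that side of 1, 1 of the 8 genes was higher (RHEBL1) and 1 lower (MLST8) in TRPV3-OE. Over all 11466 measured genes 5.31% were higher, 5.35% lower and 10.7% either. The 8 genes were chosen with these ratios known, so nothing is read from their count. The median log2 ratio of the 8 was −0.02, against −0.03 over all measured genes.

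**Figure D2:**
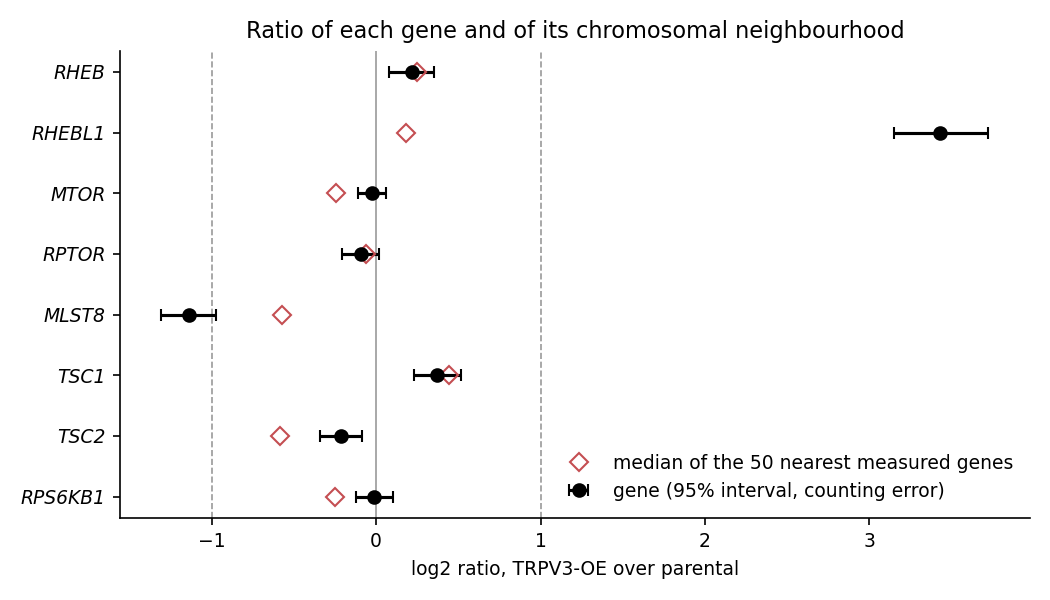
Log2 ratio of TRPV3-OE over parental for each gene (black, with 95% counting interval) and the median ratio of its 50 nearest measured genes (red diamonds), with dashed lines at 2-fold. RHEBL1 at 3.43 stands far from a neighbourhood median of 0.18, and MLST8 at −1.14 lies beyond one of −0.57.

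Levels between genes were compared per kilobase of exon in the gene model. In the parental library the order was RHEB (13.5 CPM per kilobase), MLST8 (12.6), MTOR (10.6), RPS6KB1 (9.63), RPTOR (8.14), TSC2 (5.62), RHEBL1 (5.07) and TSC1 (4.21). The intervals of RHEB and MLST8 overlapped, as did those of TSC2 and RHEBL1, and of RHEBL1 and TSC1. In the TRPV3-OE library RHEBL1 came first (54.8), before RHEB (15.7), MTOR (10.4), RPS6KB1 (9.55), RPTOR (7.62), MLST8 (5.70), TSC1 (5.44) and TSC2 (4.84). There MTOR and RPS6KB1 overlapped, as did MLST8 and TSC1, and TSC1 and TSC2. The order MTOR, RPS6KB1, RPTOR held in both libraries, while RHEBL1 moved to the top and MLST8 down, and TSC1 and TSC2 had overlapping intervals in TRPV3-OE. These levels depend on the gene model. Per kilobase of the principal transcript, a length added after the data were seen, MLST8 came first in the parental library (29.04, before RHEB at 23.0). On that scale RHEBL1 stayed first in TRPV3-OE (58.4). Other places changed there, with MLST8 (13.2) before RPTOR (11.2) and TSC2 (8.73) before TSC1 (6.26).

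The genes around RHEBL1 did not share its ratio. Just downstream lies KMT2D, a histone methyltransferase gene whose start is 10.3 kb from that of RHEBL1, with 1063 and 1914 counts (log2 ratio 0.79). PRKAG1, an AMP-activated kinase subunit gene, had 1258 and 1280 counts, DDN 43 and 23, and the antisense gene DDN-AS1 11 and 23. On the upstream side DHH, the desert hedgehog gene whose start is 24.8 kb away, had 0 and 1 counts. Beyond it LMBR1L had 359 and 522 counts, TUBA1B-AS1 85 and 48, and the tubulin gene TUBA1B 14372 and 11829. Within 1000 kb of the RHEBL1 start, 29 other genes were measured, with a median log2 ratio of 0.06 and a highest of 1.41. Past 2-fold were BCDIN3D (83 and 229 counts) on the higher side and TUBA1A (152 and 39 counts) on the lower, both named after their values were seen. The files list no gene that overlaps RHEBL1.

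**Figure D3:**
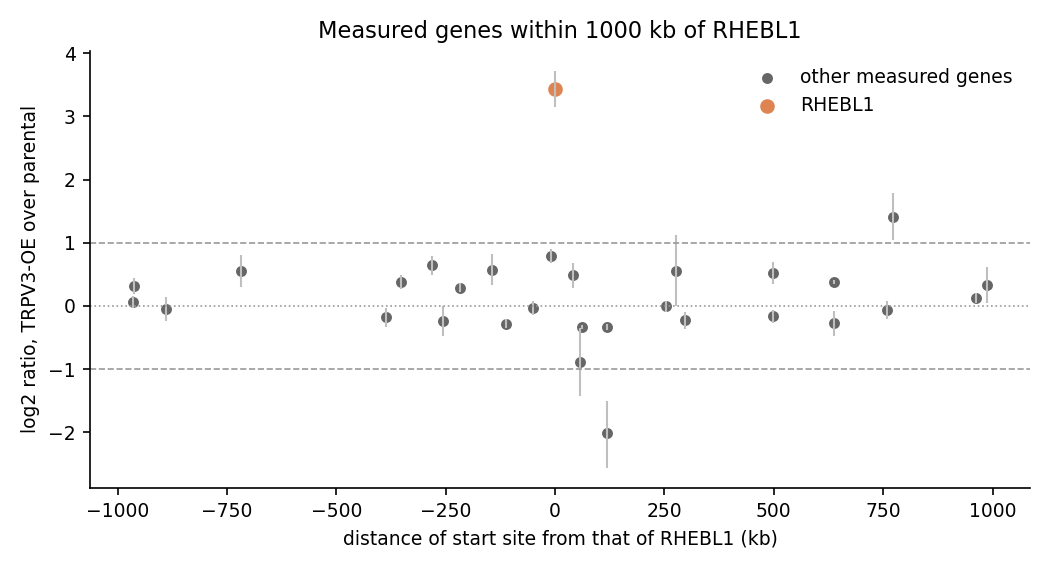
Log2 ratio of TRPV3-OE over parental (with 95% counting interval) of measured genes against the distance of their start site from that of RHEBL1, in kb. RHEBL1 (orange, 3.43) stands alone above the others, whose highest value is 1.41.

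By ratio over the 2 libraries, the protein-coding genes nearest to RHEBL1 were COL21A1, a collagen gene (9 and 104 counts, log2 ratio 3.47), and TJP3, which encodes the tight junction protein ZO-3 (13 and 140, 3.37). UGT8, a galactosylceramide synthesis gene (29 and 308), the angiomotin gene AMOT and the calcium-permeable channel gene TRPV4 (both 21 and 223) followed at 3.35. All 5 had fewer TRPV3-OE counts than RHEBL1. Likeness over a pair of libraries means only a similar ratio.

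The wider pathway was described with 177 genes in 11 lists, which were also drawn up with earlier results of these data known. Of their 156 measured genes 4 were at least 2-fold higher and 9 lower, together 8.33%, beside the 10.7% of all measured genes. Their median log2 ratio was −0.09. With the local median subtracted from each ratio, 6 genes (3.85%) passed, beside 8.89% of all measured genes. Of these, PRKAA2, MITF, SGK1, PIK3CD and RRAS were among the 13, and INSIG1 was not. Counts of the single lists below stand beside 5.31% higher and 5.35% lower of all measured genes, and nothing is read from them. Values of the following genes are given also where they did not pass, and AKT1S1, RRAGD, AKT1, AKT2, PIK3R2, PRKAA1, DDIT4, TFEB, EIF4EBP1, EIF4EBP2 and RPS6KB2 were named after their values were seen.

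Closest to the 8 genes stand the other mTORC1 subunits and the proteins that assemble the complex, of which 0 of 7 measured were higher and 1 lower (median −0.17). The exception was TELO2, a chaperone cofactor that matures mTOR and related kinases, with 1384 and 692 counts (log2 ratio −1.06, 2.08-fold lower). Like MLST8, TELO2 lies on chromosome 16 among genes with low ratios (median −0.63). AKT1S1, the inhibitory subunit PRAS40, had 1388 and 1379 counts, and the inhibitor gene DEPTOR, named after its values were seen, had only 2 and 13. The mTORC2 list held 4 subunits and SGK1, a kinase that mTORC2 activates. SGK1 was 57.4-fold lower, with 331 parental and 6 TRPV3-OE counts (log2 ratio −5.84, −7.30 to −4.70). None of these 4 subunit genes passed 2-fold, and the list median was 0.21. MTOR and MLST8, which mTORC2 shares with mTORC1, are not in the list, and MLST8 was lower as described above. Named after their values were seen, RICTOR had 797 and 1441 counts (log2 ratio 0.80, 0.67 to 0.92, local median 0.14) and MAPKAP1 a log2 ratio of 0.37. PRR5L was at 0.21 and PRR5 at −0.50.

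RHEB acts only after a lipid anchor is added, and its inhibitor carries another subunit, TBC1D7. None of the 6 genes of this list passed 2-fold (median −0.28). TBC1D7 had 366 and 208 counts (log2 ratio −0.87, near its local median of −0.80) and PDE6D, a carrier of prenylated GTPases, 308 and 469 (0.55).

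Amino acids reach mTORC1 through the Rag GTPases, their Ragulator scaffold and the GATOR and sestrin proteins. Of 28 measured genes 0 were higher and 1 was lower, the Ragulator subunit gene LAMTOR3 (786 and 359 counts, log2 ratio −1.19, local median −0.70), and the median was −0.22. Within the pair RRAGC and RRAGD, RRAGD took 3.89% of the level per kilobase in parental and 17.1% in TRPV3-OE cells, from 12 and 50 counts. RRAGD lies below the minimum of 100 counts and so outside the 28. Its ratio was 4.01-fold (2.10 to 8.27), and with a minimum of 20 or 1 count it was the 1 gene of this list that passed on the higher side.

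Growth factor signals arrive through PI3 kinase and AKT, which blocks the TSC complex. Here 0 of 17 measured genes were higher and 2 lower (median −0.20). PIK3CD, the PI3 kinase catalytic subunit best known from leukocytes, had 173 and 23 counts (7.82-fold lower, log2 ratio −2.97, −3.66 to −2.33). The phosphatase gene INPP4B had 763 and 315 counts (2.52-fold lower, log2 ratio −1.33, local median −0.70). AKT1 had 5455 and 2849 counts, a log2 ratio of −0.99, just short of the limit. The local median of AKT1 was −0.78, which leaves −0.22. AKT2 had 2478 and 2661. PIK3R2 had 1 count in each library. A second gene model on the same strand, with 0 counts in both, covers 3947 of its 4524 exon bases (87.2%), and reads in both models are not counted.

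Low energy holds mTORC1 back through AMP-activated kinase. Of 10 measured genes 1 was higher and 0 lower (median −0.01). This was PRKAA2, the second catalytic subunit gene, with 100 and 1868 counts (17.97-fold, log2 ratio 4.17, 3.88 to 4.47), while PRKAA1 had 3593 and 4029. DDIT4, a stress-induced inhibitor acting through the TSC complex, had 13150 and 13601 counts.

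**Figure D4:**
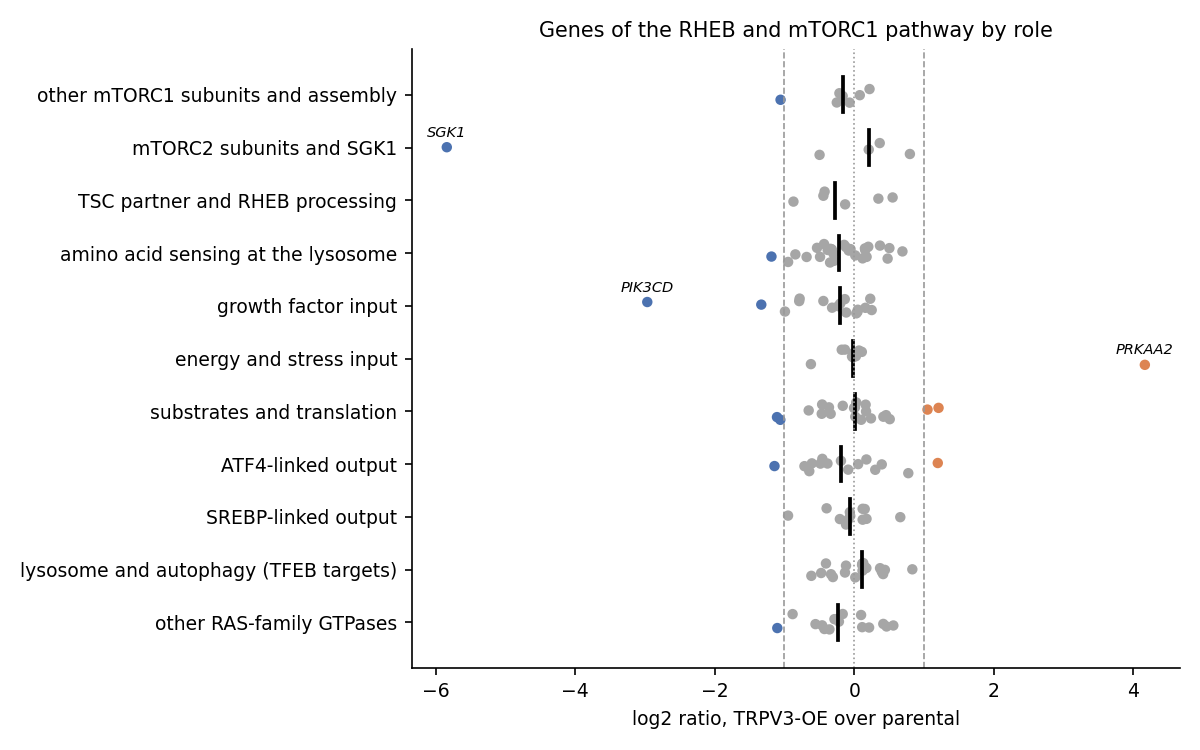
Log2 ratio of TRPV3-OE over parental of each measured gene (points) in 11 pathway lists, with the list median (black bar) and dashed lines at 2-fold. Of 156 measured genes 4 were at least 2-fold higher (orange) and 9 lower (blue), together 8.33%, beside 10.7% of all measured genes. Names are given beyond a log2 ratio of 2 in either direction.

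Downstream of mTORC1, the substrates and translation factors had 2 of 21 measured genes higher and 2 lower (median 0.02). MITF (104 and 250 counts, log2 ratio 1.21) and TFE3 (1175 and 586, −1.06), related transcription factors held in the cytoplasm by mTORC1, went opposite ways. The local median of MITF was −0.01 and that of TFE3 −0.74, which leaves −0.32 for TFE3. Their relative TFEB had 147 and 154 counts. The share of TFE3 in the level of the 3 factors per kilobase was 87.1% in parental and 68.8% in TRPV3-OE cells, and that of MITF 4.59% and 17.5%. GRB10, an adaptor that mTORC1 stabilises, had 299 and 644 counts (log2 ratio 1.05, local median 0.17). The cap-binding protein gene EIF4E had 833 and 402 (−1.11, local median −0.75). With the local median subtracted MITF passed 2-fold and TFE3, GRB10 and EIF4E did not. Of its repressors, EIF4EBP1 had 2553 and 1922 counts and EIF4EBP2 1890 and 2797. With approximate intervals that held the mix of the other genes fixed, the share of EIF4EBP2 in their level was 9.86% (9.34 to 10.4) and 17.7% (16.9 to 18.6). By raw counts it was 42.5% (41.1 to 44.0) and 59.3% (57.8 to 60.7), so whether EIF4EBP2 is the minor gene depends on the length correction, while its share is higher in TRPV3-OE on either scale. RPS6KB2, the second S6 kinase gene, had 1151 and 1068 counts, and RPS6KB1 kept 45.5% (43.5 to 47.5) and 48.1% (46.1 to 50.1) of the pair.

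**Figure D5:**
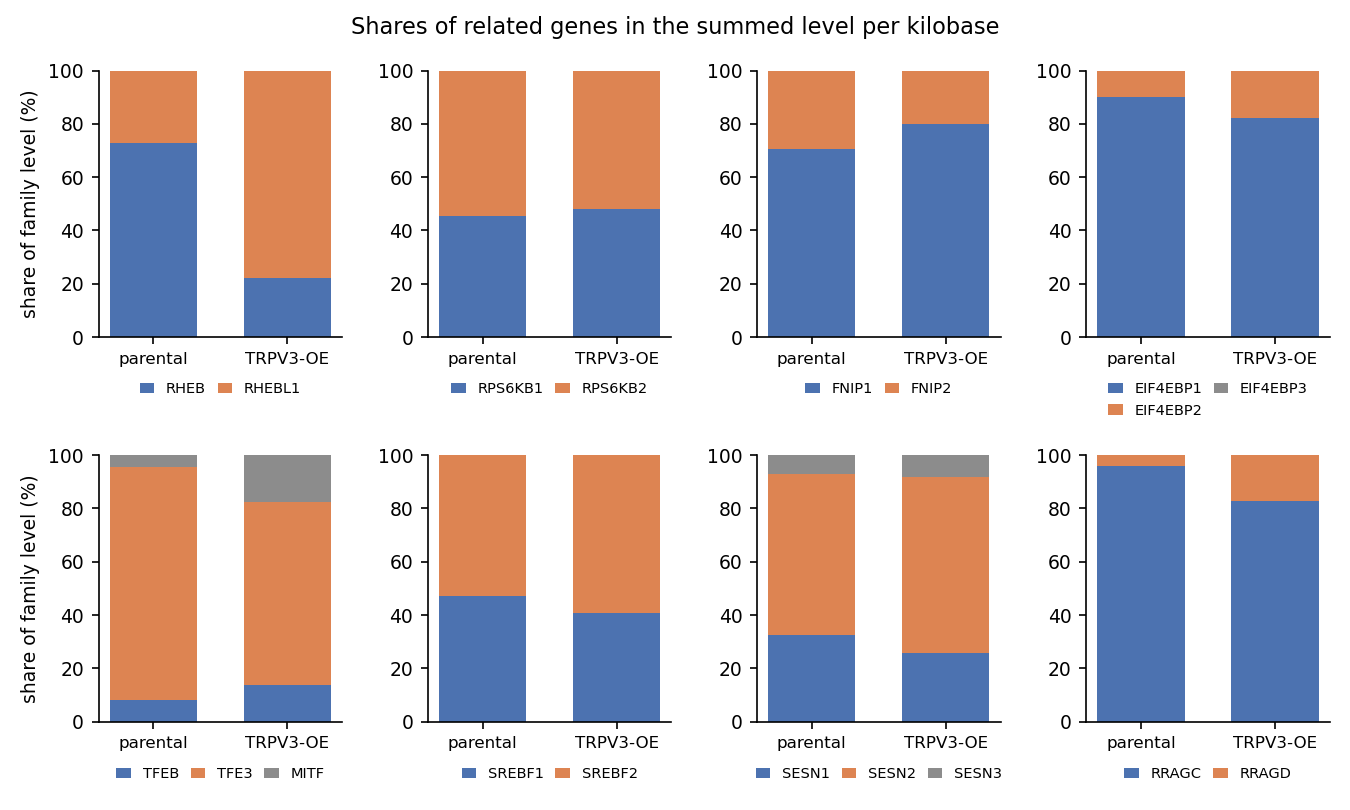
Share (%) of each related gene in the summed level per kilobase of its family in the parental and TRPV3-OE libraries. RHEBL1 went from 27.3% to 77.7% of its pair, whereas RPS6KB1 was at 45.5% and 48.1%.

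Further transcriptional programmes lie downstream of mTORC1. The ATF4-linked list had 1 of 15 higher and 1 lower (median −0.19). It held mostly serine and amino acid supply genes, and also ATF4, CHAC1, DDIT3 and TRIB3. PHGDH, the entry enzyme of serine synthesis, had 3304 and 7881 counts (log2 ratio 1.20, local median 0.73), and the cystine transporter gene SLC7A11 818 and 385 (−1.14, local median −0.70). In the SREBP-linked lipid list 0 of 12 passed 2-fold (median −0.06). INSIG1, which retains SREBP in the endoplasmic reticulum, had 3295 and 1775 counts (−0.95). Its local median was 0.25, and with that subtracted it was at −1.20, the 1 gene of the list then past 2-fold. FASN, the fatty acid synthase gene, had 30287 and 49774 (0.66). In the lysosome and autophagy list 0 of 19 passed 2-fold (median 0.12). The autophagosome protein gene GABARAPL1 had 555 and 1028 counts (0.83), and WIPI1, which acts in autophagosome formation, 243 and 165 (−0.61).

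RHEBL1 was also set beside other GTPases of the RAS family, of which 16 of 30 were measured. None was at least 2-fold higher and 1 was lower, RRAS, with 785 and 380 counts (log2 ratio −1.10). Over all measured genes 5.31% were higher and 5.35% lower, so nothing is read from the counts of these 16 genes. The median was −0.24 and the highest ratio 0.56, that of NRAS (2700 and 4141 counts), named after its value was seen, whose local median was 0.70. The 14 below 100 counts include RERG, a growth-inhibiting member also named after its values were seen, with 5 and 87 counts. RERG was 16.7-fold higher (6.90 to 52.8), which lies above the RHEBL1 ratio with overlapping intervals, and with a minimum of 20 or 1 count it passed on the higher side.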

How the data were processed

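RNA from 1 parental and 1 TRPV3-OE library was analysed, grouped by the genotype label. The authors deposited gene-level read counts without normalisation, made with featureCounts 1.5.0-p3 by strand on Ensembl 87 gene models (GRCh38.p7), per the file headers. By its defaults, multi-mapping reads and reads shared by 2 genes of one strand are dropped. The submitters' processing notes also name STAR and DESeq2, with no version.

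Libraries were scaled with TMM (edgeR 4.0.16, R 4.3.3), factors 0.981 and 1.02, and 1 count equals 0.0584 and 0.0562 CPM. No model was fitted. CPM carry exact Poisson intervals and ratios exact conditional binomial (Clopper-Pearson) intervals. In ratios a count of 0 was set to 0.5. Symbols were matched for 56948 gene IDs. The 8 genes, the lists and the settings were chosen with earlier results of these data known. By a rule, list genes past 2-fold (at most 6 a list, otherwise the 2 with the largest ratios), 4 neighbours on each side of RHEBL1 and the 5 genes nearest to its ratio were named, and others after their values were seen, as said there. Some genes and sequences are not reported here, and such genes were left out of the lists. The calculation was tested on data simulated with counting error alone, so it says nothing about spread between libraries. Its limit for false calls was set after the first draw was seen. Alternatives were other scalings (DESeq2 1.42.0 among them), a prior count of 5, other minimums and fold limits, protein-coding genes alone, correction by the local median (50 nearest genes), and shares without length. Python 3.11.15 with scipy 1.17.1 and Biopython 1.88 was used.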

Additional observations from a re-analysis of the deposited data

How the results depend on the processing

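No paired analysis was possible because there was 1 library in each arm, so leaving out replicates could not be done either. The length of the principal transcript was chosen after the data were seen, and the other settings were planned. Under 3 other scalings and a prior count of 5, all 32 ratios of the 8 genes stayed within their counting intervals, and the median over measured genes shifted by at most 0.0582. With the median of the 50 nearest genes subtracted, RHEBL1 (3.25) and RPTOR (−0.04) stayed within theirs. RHEB then had a log2 ratio of −0.034, MTOR 0.22, MLST8 −0.57, TSC1 −0.074, TSC2 0.37 and RPS6KB1 0.24, so MLST8 was no longer past 2-fold.

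The RHEBL1 share of its pair became 12.03% and 56.0% by raw counts, and 19.0% and 68.6% per length of the principal transcript (parental, then TRPV3-OE). Of 38 shares of 19 other genes, 31 left their counting interval without the length correction. The direction between libraries was the same for 18 of the 19, EIF4EBP3 (1 count in each library) being the exception.

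Listed genes higher and lower numbered 2 and 4 after the subtraction of neighbours (589 and 430 of all measured genes), 9 and 24 at 1.5-fold, and 1 and 2 at 4-fold. With a minimum of 1 count 7 of 173 listed genes were higher and 10 lower, together 9.83%, beside 10.8% of 22863 genes. At 1.5-fold 21.2% of listed and 26.9% of all measured genes passed, and at 4-fold 1.92% and 2.7%. A minimum of 20 counts gave 9.88% of listed and 14.6% of all measured genes. With a minimum of 500 counts the order was the other way, 7.19% of 139 listed genes beside 6.41% of 8858 genes. All measured genes higher and lower numbered 1347 and 1121 with a minimum of 1 count, 1094 and 942 with 20, 245 and 323 with 500, 151 and 159 with a 4-fold limit, and 1455 and 1627 with a 1.5-fold limit, since these settings change which genes qualify. Of 220 counts of single lists 40 changed by more than 1.5 times. Of 88 list medians 5 moved by more than the typical half-width of the list's counting intervals. In 4 the sign turned: the energy list from −0.012 to 0.042, 0.030 and 0.046 with total counts, DESeq2 and upper-quartile scaling, and the mTORC2 list from 0.21 to −0.069 with the local median subtracted. TELO2 was no longer counted with upper-quartile scaling.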

Other observations

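Some genes of the pathway lists lay below the minimum of 100 counts and were named after their values were seen. DIRAS3, a growth-inhibiting RAS-family gene, had 3 counts in the parental and 0 in the TRPV3-OE library, and MRAS 16 and 6. DDIT4L, a relative of DDIT4, had 6 and 3. The arginine sensor gene CASTOR1 had 6 and 7, and CASTOR2 had 20 and 36. EIF4EBP3 had 1 count in each library. No fold is given for these.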
